A study of Mus musculus with 6 samples.

Results

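A set of 7 genes of glucose sensing and uptake was followed in peak lists from cultured mouse group 2 innate lymphoid cells (ILC2s). They were Mlxipl (ChREBP), its relative Mlxip (MondoA), their shared partner Mlx, the target genes Txnip and Arrdc4, and the glucose transporter genes Slc2a1 (GLUT1) and Slc2a3 (GLUT3). They are 7 of 21887 protein-coding genes. Mlxipl was chosen by its own values: peaks covered less of a 4-kb window around its strongest site in both FK866 groups than in Control (log2 difference −0.60 in each). The other 6 genes were added as its known partners, targets and transporters, with earlier results of these data known. The Mlxipl values are therefore given as a description, with no test.

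CUT&Tag was applied to colon ILC2s, innate lymphocytes known for the type 2 cytokines IL-5 and IL-13. In CUT&Tag a transposase is brought to an antibody on chromatin, and DNA near the bound target is cut and sequenced. Which protein or mark the antibody recognised is not stated in the labels, so a peak marks enrichment for an unnamed target. In bulk cells, the share of cells that carry a peak and the enrichment per cell cannot be told apart. The cells were grown with the cytokines IL-33, IL-25, IL-7 and IL-2 in all 3 groups. The treated groups received FK866 plus succinate or FK866 alone, and the Control group received neither, with 2 libraries in each group. FK866 inhibits NAMPT, the rate-limiting enzyme of NAD salvage, and succinate is an intermediate of the tricarboxylic acid cycle. Doses, treatment times and the age, sex and strain of the mice are not given in the labels. Nothing in the labels shows that paired libraries came from different cultures or mice, and each p-value then reflects only the spread among these 6 libraries, which may be technical.

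ChREBP and MondoA are glucose-responsive transcription factors that pair with Mlx and bind carbohydrate response elements, which are built from E-box-like motifs. ChREBP is best known from liver and fat, and MondoA from skeletal muscle. Txnip and Arrdc4 are strong targets of both factors. Their proteins, TXNIP and ARRDC4, are alpha-arrestins that lower glucose uptake, in part by removing GLUT1 from the cell surface. Mlxipl has an upstream start site, which gives the shorter and more active beta form, and a downstream one, which gives the alpha form.

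Promoter windows of the genes were read from RefSeq (GRCm38.p6, whose chromosome coordinates are those of mm10). Each window holds 250 bp before and 50 bp after an annotated start site. Of the 7 genes, 6 were matched, with 7 windows. The 5 windows printed here are those with a motif and, for comparison, the downstream window of Mlxipl. All are written 5′ to 3′ on the strand of the gene. Capitals mark CACGTG, the E-box, or in Txnip the direct repeat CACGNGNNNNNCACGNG, a form of the carbohydrate response element that was chosen after the Txnip window had been seen. Both strands were searched, and the 2 motifs did not overlap in any of these windows.
Txnip, chr3:96557707-96558006, plus strand: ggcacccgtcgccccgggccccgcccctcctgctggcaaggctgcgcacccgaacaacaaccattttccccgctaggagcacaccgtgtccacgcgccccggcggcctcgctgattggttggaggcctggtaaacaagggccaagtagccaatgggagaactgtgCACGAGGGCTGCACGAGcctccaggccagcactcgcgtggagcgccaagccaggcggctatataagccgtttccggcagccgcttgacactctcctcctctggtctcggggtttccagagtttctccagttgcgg
Arrdc4, chr7:68749189-68749488, minus strand: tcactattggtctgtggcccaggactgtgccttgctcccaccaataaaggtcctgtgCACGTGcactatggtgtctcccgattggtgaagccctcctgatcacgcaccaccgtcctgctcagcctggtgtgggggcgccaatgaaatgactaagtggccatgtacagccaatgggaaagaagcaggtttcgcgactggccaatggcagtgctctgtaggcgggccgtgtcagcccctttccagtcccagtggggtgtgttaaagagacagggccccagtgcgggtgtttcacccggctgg
Mlx, chr11:101087040-101087339, plus strand: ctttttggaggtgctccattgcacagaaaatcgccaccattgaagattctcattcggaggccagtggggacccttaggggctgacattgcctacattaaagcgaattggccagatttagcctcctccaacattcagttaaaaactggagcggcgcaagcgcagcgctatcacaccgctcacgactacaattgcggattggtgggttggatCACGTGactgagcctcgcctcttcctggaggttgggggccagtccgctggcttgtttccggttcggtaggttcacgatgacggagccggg
Mlxipl upstream, chr5:135089640-135089939, plus strand: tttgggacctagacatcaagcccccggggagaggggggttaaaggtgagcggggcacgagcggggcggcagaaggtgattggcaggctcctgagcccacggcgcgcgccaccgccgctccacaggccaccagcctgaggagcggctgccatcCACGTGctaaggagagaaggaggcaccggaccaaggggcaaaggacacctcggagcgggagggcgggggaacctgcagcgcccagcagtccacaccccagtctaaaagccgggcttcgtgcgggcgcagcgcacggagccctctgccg
Mlxipl downstream, chr5:135106641-135106940, plus strand: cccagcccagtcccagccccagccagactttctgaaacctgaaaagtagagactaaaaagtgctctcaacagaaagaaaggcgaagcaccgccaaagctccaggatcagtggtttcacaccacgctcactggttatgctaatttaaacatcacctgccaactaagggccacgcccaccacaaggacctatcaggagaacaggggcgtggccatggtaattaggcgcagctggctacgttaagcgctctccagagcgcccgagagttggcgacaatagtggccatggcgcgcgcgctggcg
The repeat began 85 bp upstream of the Txnip start site. The E-box began 193 bp upstream in Arrdc4, 40 bp upstream in Mlx and 98 bp upstream in the first window of Mlxipl. The windows of Mlxip and Slc2a1 and the downstream window of Mlxipl held neither motif. Over all 32851 promoter windows of this length, 7.15% held CACGTG and 0.0487% held the repeat. A match is a match of letters and was not measured as binding.

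Peaks covered these windows unevenly. All 300 bp of the Txnip, Arrdc4, Mlx, Mlxip and Slc2a1 windows lay under a peak in every library. The upstream Mlxipl window was covered over 0 and 187 bp in the FK866 plus succinate libraries, 0 and 45 bp in FK866, and 300 and 0 bp in Control. The peaks around that start site were weak. Their −log10 p was 2.05 and 2.04 in FK866 plus succinate, 1.63 in FK866 library 2 and 2.53 in Control library 1. None of them had an adjusted p under 0.05. The downstream window was covered over all 300 bp in 5 libraries and over 189 bp in FK866 library 1.

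The lists held between 40320 and 56361 peaks. FK866 plus succinate library 2 had the most peaks and the lowest relative depth inferred from the fold values (1.25, against 1.60 to 2.14 in FK866 and Control and 1.74 in its replicate). Depth and list length differ between the same libraries as the values given here, and their part in the results was not tested. All 11 ILC2 markers had peaks in all 6 libraries, with summed covered lengths of 82348 to 82456 bp in FK866 plus succinate, 79912 to 85396 bp in FK866 and 83985 to 89206 bp in Control. Markers of T cells summed to 6075 to 8855, 6774 to 10085 and 6426 to 7973 bp in the same groups, and Cd8a had no peak in any library. B cell markers summed to 4427 to 4445, 4205 to 4402 and 4839 to 7108 bp, myeloid markers to 765 to 1111, 0 to 525 and 537 to 618 bp, and epithelial markers to 2734 to 2793, 2006 to 3498 and 1856 to 4422 bp. Markers of NK cells and ILC1 summed to 4401 to 5120, 4739 to 5117 and 4967 to 5626 bp, and those of ILC3 to 650 to 1647, 833 to 892 and 464 to 1623 bp. Ms4a1, Adgre1, Krt20, Ncr1 and Il23r had no peak in any library. The sums are not scaled to the number or length of the marker genes, so they cannot be compared between cell types.

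All 7 genes had peaks in every library and were among the 15362 genes tested. Their peaks numbered 24 and 29 in FK866 plus succinate, 23 and 27 in FK866, and 27 and 20 in Control. Merged over libraries they made 52 regions. A peak was present in every library in 14 of these (26.9%), against 21.7% of all 101435 regions. The 27 regions with a peak in 1 library made up 51.9%, against 49.5% overall. Mlx, Txnip and Arrdc4 had 1 or 2 peaks per library, always in the same regions, whereas Mlxipl had 5 to 9 and Mlxip 2 to 6.

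The genes were ordered by the rank of their strongest peak, as its percentile of −log10 p among the 15362 genes of the same library. This measure was added after the data were seen because a percentile within a list moves with the length of the list. The means over 6 libraries were 79.8 ± 6.67 for Slc2a1, 64.7 ± 8.47 for Mlx, 61.6 ± 5.64 for Slc2a3, 49.5 ± 17.2 for Arrdc4, 42.5 ± 5.09 for Mlxip, 35.7 ± 3.92 for Txnip and 24.0 ± 1.94 for Mlxipl (SD, n = 6). In this order, Mlx and Slc2a3, Slc2a3 and Arrdc4, and Arrdc4 and Mlxip lay no farther apart than the larger of their SDs, and the other neighbours lay farther apart. The rank is not scaled to gene length. Per length, peaks covered on average 41.5% of the Txnip window, 15.7% of Slc2a1, 13.3% of Mlx, 8.4% of Slc2a3, 7.6% of Arrdc4 and 5.5% of Mlxip, with Mlxipl between Mlx and Slc2a3. Within its own list, the percentile of the strongest peak was 69.8 to 80.1 for Mlxipl and 92.8 to 96.8 for Slc2a1.

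**Figure D1:**
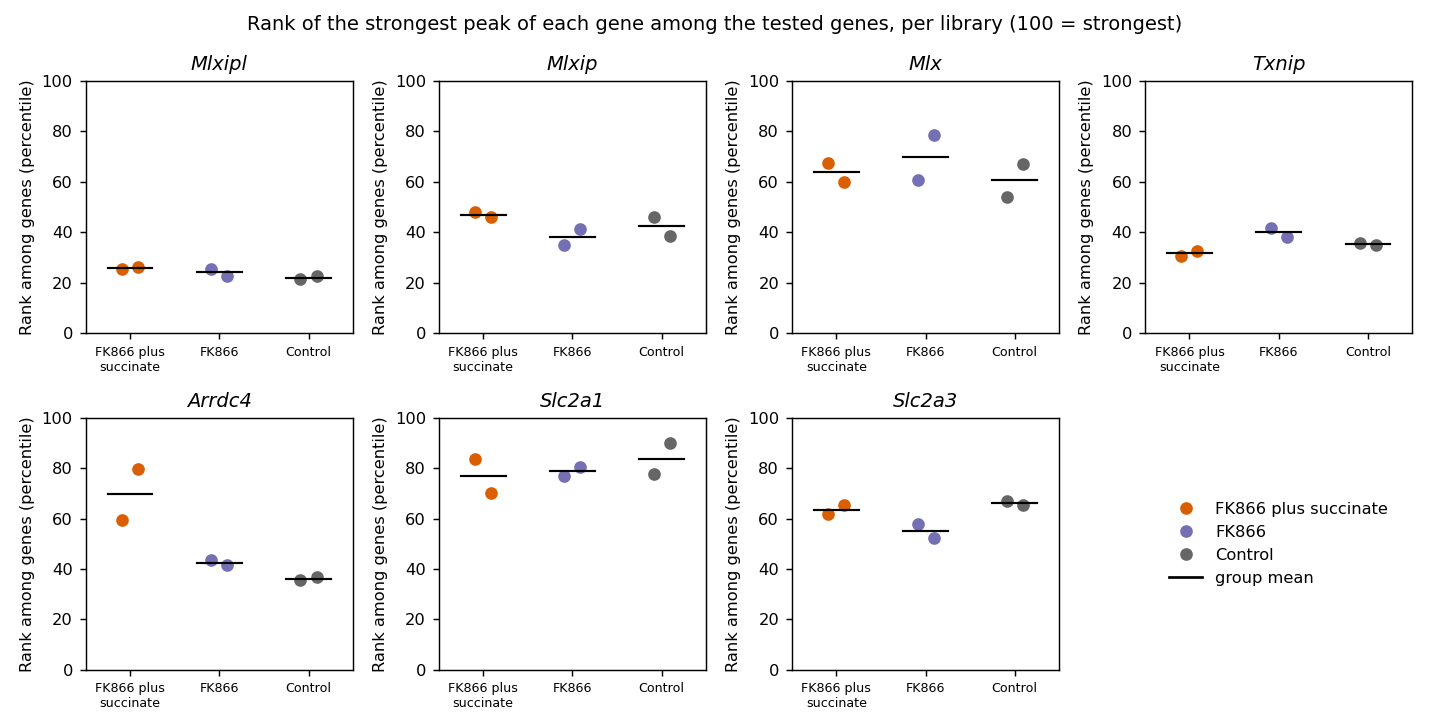
Rank of the strongest peak of each of the 7 genes among the 15362 tested genes (vertical axis, percentile, 100 the strongest), with 1 point per library by group. Arrdc4 sits at 59.6 and 79.8 in FK866 plus succinate, above all FK866 and Control libraries.

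Among the sensors, Mlxipl was covered most in FK866 plus succinate and least in FK866. Peaks covered 6832 and 6114 bp of its span plus 2 kb on either side (chr5:135089890-135139768 for the span) in FK866 plus succinate, 4393 and 4529 bp in FK866, and 5608 and 4860 bp in Control. No library of any group overlapped another group's range. The means were 6473 ± 508, 4461 ± 96.2 and 5234 ± 529 bp (SD, n = 2). The mean differed by 45.1% between FK866 plus succinate and FK866, by −14.8% between FK866 and Control, and by 23.7% between FK866 plus succinate and Control. These 3 comparisons share their groups. The rank of its strongest peak among genes was 25.4 and 26.3 in FK866 plus succinate, 25.4 and 22.8 in FK866, and 21.6 and 22.4 in Control.

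The order of the groups differed along the Mlxipl gene. At its strongest site, chr5:135132838-135135147, peaks covered 1240 and 1268 bp in FK866 plus succinate, 1274 and 1246 bp in FK866, and 1977 and 1939 bp in Control. Both FK866 groups were thus narrower than Control and close to each other. The means differed by −698 bp between FK866 and Control and by −704 bp between FK866 plus succinate and Control, and this is the site by which Mlxipl was chosen. In Control library 1 the additional length was a separate 666-bp peak with a −log10 p of 5.6, and in Control library 2 it was part of the main peak. Both Control libraries, and none of the other 4, had a peak over a stretch of 295 bp, chr5:135133209-135133503. The strength of the site did not follow its width. Its rank among regions was 48.0 and 49.3 in FK866 plus succinate, 48.4 and 43.8 in FK866, and 42.1 and 43.9 in Control.

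A second Mlxipl region, chr5:135126121-135128544, was wider in FK866 plus succinate than in the other groups. It was covered over 2023 and 1105 bp in FK866 plus succinate, 613 and 289 bp in FK866, and 366 and 398 bp in Control. The differences were 1113 bp against FK866 and 1182 bp against Control. Without FK866 plus succinate library 1 they were 654 and 723 bp. The peaks there were weak, with −log10 p of 3.9 and 3.3 in FK866 plus succinate, 2.4 and 2.1 in FK866, and 1.3 and 3.7 in Control. A region at the downstream start site, chr5:135106457-135108466, was covered over 1413 to 1756 bp in every library. Its rank was 32.5 and 21.7 in FK866 plus succinate, 38.1 and 33.9 in FK866, and 34.3 and 33.8 in Control, so that FK866 plus succinate was lower than both. The differences in rank were −8.91 points against FK866 and −6.95 points against Control. Without FK866 plus succinate library 2 they were −3.54 and −1.59 points.

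**Figure D2:**
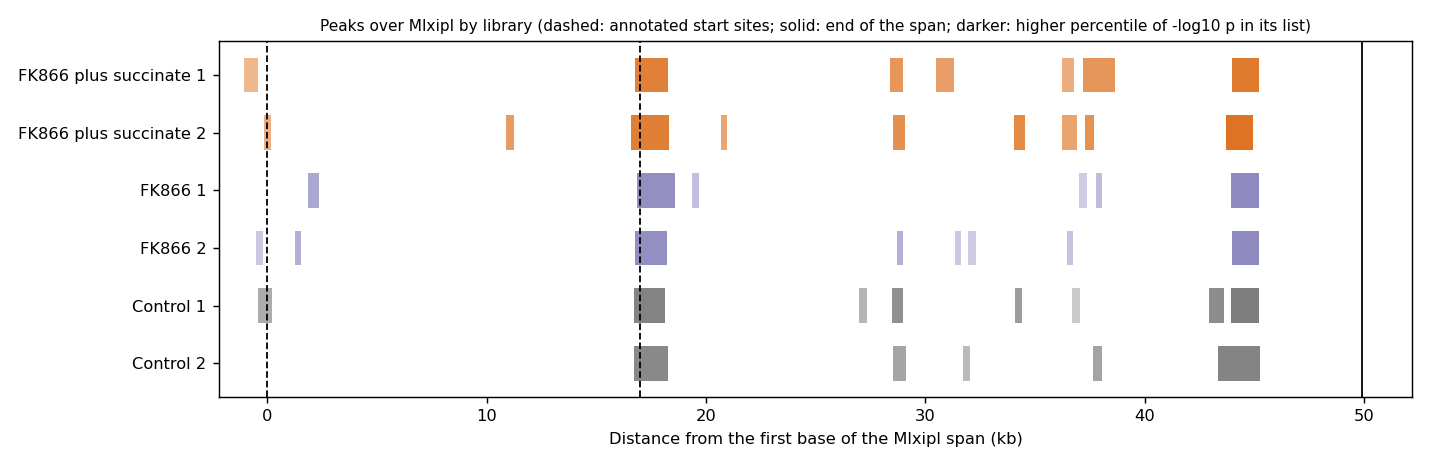
Peaks over Mlxipl in the 6 libraries, by distance in kb from the first base of the span (horizontal axis); each bar is a peak, darker where its −log10 p is higher within its list. The site near the far end is wider in the 2 Control libraries (1977 and 1939 bp) than in the other 4 (1240 to 1274 bp).

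Mlxip encodes the related sensor MondoA. Its span plus 2 kb was covered over 4349 and 4397 bp in FK866 plus succinate, 2844 and 3812 bp in FK866, and 3650 and 3189 bp in Control. The FK866 plus succinate libraries were higher than all others, and FK866 and Control overlapped. The log2 difference was 0.40 (SE 0.16, adjusted p = 0.579 from limma) against FK866 and 0.35 (adjusted p = 0.634 from limma) against Control. With only peaks of adjusted p under 0.05, the sign turned in both comparisons, to −0.08 and −0.32. Peaks of adjusted p under 0.05 numbered 1 and 1 in FK866 plus succinate, 1 and 1 in FK866, and 2 and 3 in Control. The region at its start was covered over 2357 and 2325 bp in FK866 plus succinate, 2484 and 2460 bp in FK866, and 2350 and 2381 bp in Control.

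Mlx, the partner of both sensors, had a single peak at its start in each library. Its length was 1202 and 1198 bp in FK866 plus succinate, 1318 and 1300 bp in FK866, and 1313 and 1255 bp in Control. The mean differed by −8.33% between FK866 plus succinate and FK866 and by −6.54% between FK866 plus succinate and Control, with adjusted p = 0.769 and 0.848 from limma. Across all regions present in every library, the median width differed by −51 bp between FK866 plus succinate and FK866 and by −55.5 bp between FK866 plus succinate and Control. The Mlx window is shared in part with Coasy, whose span lies beside Mlx, and with Psmc3ip, whose span overlaps the end of Mlx.

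The strongest peaks of the 2 target genes stood in opposite directions in FK866 plus succinate. That of Arrdc4 ranked higher in that group than in FK866 or Control, and that of Txnip lower. Arrdc4 stood at percentile 59.6 and 79.8 among genes in FK866 plus succinate, 43.4 and 41.7 in FK866, and 35.6 and 36.6 in Control. The groups did not overlap in this rank in any of the 3 comparisons. The −log10 p of the peak was 109.29 and 97.54 in FK866 plus succinate, 96.33 and 64.42 in FK866, and 62.62 and 75.44 in Control. Its deposited fold was 11.19 and 12.85 in FK866 plus succinate, 13.23 and 12.42 in FK866, and 11.47 and 12.41 in Control. The folds of FK866 plus succinate overlapped those of both other groups. A −log10 p of 97.54 ranked at 79.8 in FK866 plus succinate library 2, and 96.33 ranked at 43.4 in FK866 library 1. The difference in rank was 27.2 points against FK866 (SE 6.12, adjusted p = 0.205 from limma) and 33.5 points against Control (adjusted p = 0.125 from limma). Counting Arrdc4 itself, 8 of the 15362 genes had a difference as high against FK866, and 4 against Control. Without FK866 plus succinate library 2 the differences were 17.1 and 23.5 points, reached by 296 and 60 genes. Without FK866 plus succinate library 1 they were 37.3 and 43.6 points, reached by 6 and 4 genes. Ranked among the 22049 regions with a peak in every library, the same peak differed by 17.5 points against FK866 and 22.4 against Control. Of these regions, 0.75% and 0.26% had a difference as high. Without FK866 plus succinate library 2 the differences among regions were 11.4 and 16.3 points, reached by 5.27% and 1.86% of regions. Among genes, Arrdc4 differed by 6.37 points between FK866 and Control. Without FK866 library 1 it differed by 5.52 points.

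The widths of the Arrdc4 peak overlapped between all groups, with a log2 difference of 0.09 against FK866 (adjusted p = 0.898 from limma) and 0.18 against Control (adjusted p = 0.817 from limma). It was 1424 and 1216 bp in FK866 plus succinate, 1388 and 1084 bp in FK866, and 1071 and 1229 bp in Control. The highest point of the peak lay 199 bp downstream of the start site in both FK866 plus succinate libraries, 204 bp in both FK866 libraries, and 68 and 71 bp in Control. The E-box of the promoter printed above lay 193 bp upstream of the same start.

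The strongest peak of Txnip ranked at 30.7 and 32.5 in FK866 plus succinate, 41.6 and 38.2 in FK866, and 35.9 and 35.1 in Control. All 3 groups were apart, with FK866 the highest and FK866 plus succinate the lowest. The difference was −8.29 points between FK866 plus succinate and FK866 (SE 2.37, adjusted p = 0.350 from limma), 4.43 points between FK866 and Control (adjusted p = 0.998 from limma), and −3.86 points between FK866 plus succinate and Control (adjusted p = 0.630 from limma). The strongest peak is the one at the start, chr3:96556796-96559212, which includes the promoter window printed above.

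A second Txnip peak inside the gene, chr3:96559547-96560726, gave the opposite order. Its width was 1168 and 1173 bp in FK866 plus succinate, 751 and 884 bp in FK866, and 926 and 1030 bp in Control. Its rank among regions was 44.1 and 54.5 in FK866 plus succinate, 33.0 and 35.8 in FK866, and 36.2 and 37.6 in Control. FK866 plus succinate was the highest by both measures, and 1.51% of regions had a rank difference as high as its 14.9 points over FK866, and 3.11% one as high as its 12.4 points over Control. Without FK866 plus succinate library 2 these differences were 9.72 and 7.22 points, reached by 7.69% and 13.0% of regions. At its far end, 111 bp (chr3:96560611-96560721) were covered in FK866 plus succinate libraries 1 and 2 and in none of the other 4. That is 3.34% of the Txnip bases shared by these 2 libraries, against 2.98% over the genome. Over the whole Txnip window, peaks covered 3417 and 3329 bp in FK866 plus succinate, 3102 and 3256 bp in FK866, and 3156 and 3430 bp in Control, a log2 difference of 0.08 against FK866 (adjusted p = 0.810 from limma).

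**Figure D3:**
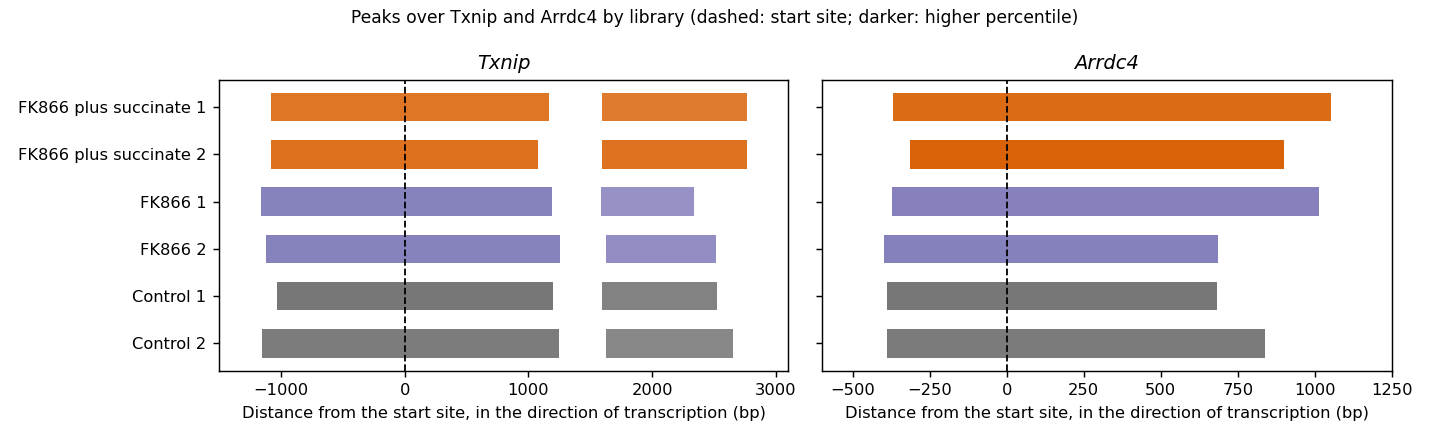
Peaks over Txnip (left) and Arrdc4 (right) in the 6 libraries, by distance in bp from the start site in the direction of transcription; darker bars have a higher −log10 p within their list. The second Txnip peak is widest in the 2 FK866 plus succinate libraries (1168 and 1173 bp).

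**Figure D4:**
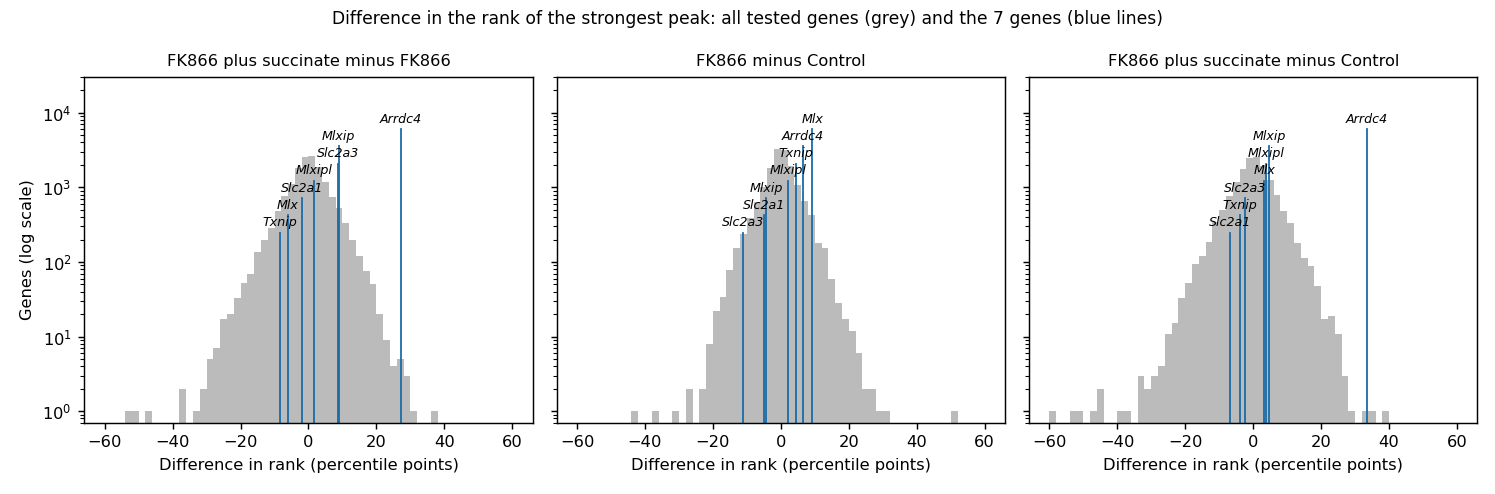
Distribution over 15362 genes of the difference in rank of the strongest peak for the 3 comparisons (horizontal axis, percentile points; vertical axis, number of genes on a log scale), with lines for the 7 genes. The line for Arrdc4 lies at 27.2 and 33.5 points in the 2 comparisons with FK866 plus succinate.

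Slc2a1 and Slc2a3 encode glucose transporters of activated lymphocytes. Slc2a1 was covered over 4416 and 4694 bp in FK866 plus succinate, 5204 and 5496 bp in FK866, and 5537 and 5313 bp in Control. The FK866 plus succinate libraries lay below all others, with a mean difference of −14.9% against FK866 and −16.0% against Control, while FK866 and Control overlapped. The log2 difference was −0.23 (SE 0.08, adjusted p = 0.534 from limma) against FK866 and −0.25 (adjusted p = 0.510 from limma) against Control. A region inside the gene, chr4:119118928-119119865, had peaks over 0 and 0 bp in FK866 plus succinate, 347 and 0 bp in FK866, and 541 and 629 bp in Control. The mean differed by −585 bp between FK866 plus succinate and Control. The peaks there were weak, with −log10 p of 2.1 in FK866 library 1 and 3.3 and 2.3 in Control. None of them had an adjusted p under 0.05. Another region inside the gene, chr4:119124949-119127814, was covered over 2177 and 2491 bp in FK866 plus succinate, 2692 and 2704 bp in FK866, and 2468 and 2680 bp in Control, so that FK866 plus succinate was below FK866 but overlapped Control. The rank of that region was 27.5 and 28.3 in FK866 plus succinate, 34.9 and 39.8 in FK866, and 32.8 and 39.5 in Control, without overlap with FK866 or Control. The region at the start ranked at 90.6 and 82.7 in FK866 plus succinate, 86.8 and 89.1 in FK866, and 87.3 and 94.1 in Control, and these overlapped.

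Slc2a3 was covered over 6438 and 6579 bp in FK866 plus succinate, 6770 and 6290 bp in FK866, and 6948 and 6579 bp in Control, and all groups overlapped or touched. Its strongest peak lay in the region chr6:122800894-122802569 in every library. The rank of this peak among genes was 62.0 and 65.2 in FK866 plus succinate, 57.9 and 52.1 in FK866, and 66.9 and 65.3 in Control. FK866 was the lowest of the 3 groups. The difference was 8.58 points between FK866 plus succinate and FK866 (adjusted p = 0.760 from limma) and −11.1 points between FK866 and Control (adjusted p = 0.998 from limma). Of the 15362 genes, 391 differed between FK866 and Control by as much or more downwards. Without FK866 library 2 the difference was −8.19 points, reached by 1197 genes, and without Control library 1 it was −10.3 points, reached by 828.

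**Figure D5:**
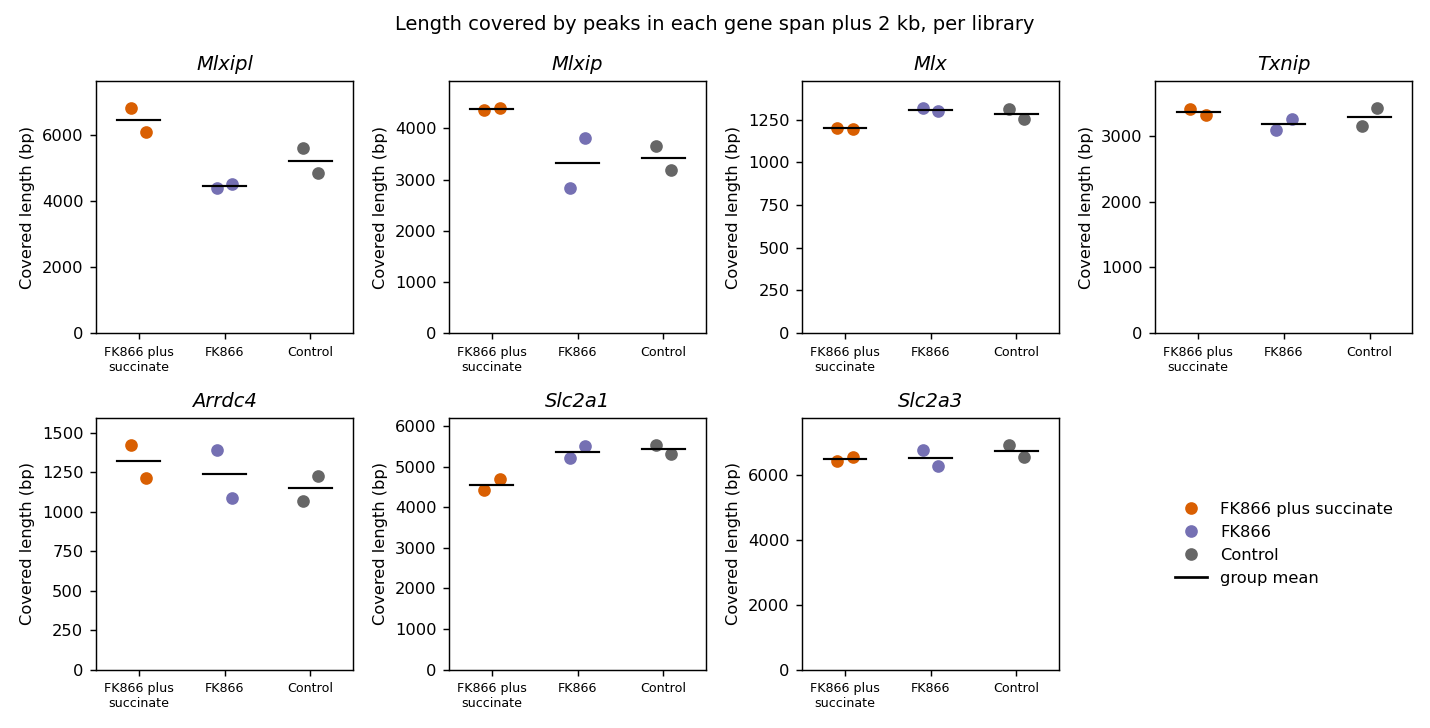
Length covered by peaks in the span plus 2 kb of each of the 7 genes (vertical axis, bp), with 1 point per library by group. Mlxipl and Mlxip are highest, and Slc2a1 and Mlx lowest, in FK866 plus succinate.

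Across the 7 genes, FK866 plus succinate and FK866 did not overlap in covered length for 3 genes with a higher value (Mlxipl, Mlxip and Txnip), against 17.9% of all genes, and for 2 with a lower one (Mlx and Slc2a1), against 21.8%. FK866 and Control did not overlap for 0 genes higher, against 12.8%, and for 1 lower (Mlxipl), against 19.9%. FK866 plus succinate and Control did not overlap for 2 genes higher (Mlxipl and Mlxip), against 13.4%, and for 2 lower (Mlx and Slc2a1), against 24.5%. These counts, and those by rank and by region that follow, include Mlxipl, which was chosen by its values in these comparisons, and nothing is read from its place in them. In covered length, none of the other 6 genes was higher or lower without overlap in FK866 than in Control. limma called 0 genes for covered length in each comparison (0.0%), and 1357, 822 and 1364 genes had an unadjusted p under 0.05 in the order just given. For the rank of the strongest peak, 4 genes were higher without overlap in FK866 plus succinate than in FK866 (Mlxipl, Mlxip, Arrdc4 and Slc2a3), against 18.9% of genes, and 1 was lower (Txnip), against 19.6%. Between FK866 and Control the counts were 3 higher (Mlxipl, Txnip and Arrdc4), against 16.4%, and 1 lower (Slc2a3), against 16.1%. Between FK866 plus succinate and Control they were 2 higher (Mlxipl and Arrdc4), against 20.9%, and 2 lower (Txnip and Slc2a3), against 19.6%. limma on the ranks called 15, 3 and 14 genes (0.0976%, 0.0195% and 0.0911%), none of them among the 6 genes other than Mlxipl. The median log2 difference in covered length over the 7 genes was 0.08, −0.05 and 0.03 in the 3 comparisons, against −0.01, −0.03 and −0.04 over all genes tested. The medians over the 7 genes also include Mlxipl, so they are a description and nothing is read from them.

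The same counts were made for the 14 of these genes' regions with a peak in every library, out of 22049 such regions in all. By rank, FK866 plus succinate was higher than FK866 without overlap in 6 regions, against 19.5% of all such regions, and lower in 3, against 20.0%. FK866 was higher than Control in 3 (16.5%) and lower in 3 (16.3%), and FK866 plus succinate was higher than Control in 5 (21.1%) and lower in 4 (20.7%). By width, FK866 plus succinate was higher than FK866 in 2 (10.4%), the Mlxipl region with weak peaks and the second Txnip peak, and lower in 4 (31.3%). FK866 was wider than Control in 2 (15.8%) and narrower in 2 (17.3%), and FK866 plus succinate was wider than Control in 2 (9.81%) and narrower in 2 (32.3%). In both comparisons with Control, 1 of the 2 narrower regions is the Mlxipl site by which that gene was chosen. The 4 such regions of Slc2a3 did not share an order of the groups. At chr6:122740908-122743280 the ranks were 59.3 and 55.7 in FK866 plus succinate, 56.4 and 56.2 in FK866, and 55.6 and 59.8 in Control. All groups overlapped there. The next region is that of the strongest Slc2a3 peak described above, so its ranks are not a separate observation. The one at chr6:122800894-122802569 ranked at 77.8 and 79.7 in FK866 plus succinate, 75.2 and 71.6 in FK866, and 80.8 and 79.8 in Control, and the one at chr6:122763350-122765483 at 59.7 and 61.5, 58.9 and 56.8, and 59.9 and 60.7 in these groups, so that FK866 was lowest at both. The weak region at chr6:122758274-122759965 ranked at 20.0 and 18.1 in FK866 plus succinate, 23.1 and 5.8 in FK866, and 4.9 and 2.8 in Control, so that Control was lowest there. It differed by 10.6 points between FK866 and Control, by 1.93 points without FK866 library 1 and by 19.3 points without FK866 library 2, and by 15.2 points between FK866 plus succinate and Control.

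Other genes of these pathways were read from 4 lists, and limma called none of their members in any comparison. Of the 10 genes of the Max and Mlx network, 0 were higher and 2 lower without overlap in each comparison. Over all genes the shares, higher and lower, were 17.9% and 21.8% between FK866 plus succinate and FK866, 12.8% and 19.9% between FK866 and Control, and 13.4% and 24.5% between FK866 plus succinate and Control. The median log2 difference of the network was −0.00, −0.03 and −0.04, against −0.01, −0.03 and −0.04 over all genes. Mxd3, a partner of Max, had the largest such difference there, −0.39 on the log2 scale against FK866 (adjusted p = 0.382 from limma), with 1993 and 2174 bp in FK866 plus succinate, 2773 and 2725 bp in FK866, and 2777 and 2746 bp in Control. Mxd4, of the same family, was covered over 2491 and 2752 bp, 2033 and 2628 bp, and 2655 and 2792 bp in these groups (log2 difference −0.23 between FK866 and Control, adjusted p = 1.0 from limma). Among ChREBP targets known from liver, 19 were tested. FK866 plus succinate was higher without overlap than FK866 for 3 of them and lower for 4, FK866 than Control for 3 and 4, and FK866 plus succinate than Control for 3 and 3. Their median differences were −0.05, −0.04 and −0.06, beside the same medians and shares over all genes. Tm6sf2, which takes part in the export of liver lipid, was covered over 1646 and 1179 bp in FK866 plus succinate, 677 and 612 bp in FK866, and 658 and 886 bp in Control (log2 difference 1.01 against FK866, adjusted p = 0.405 from limma). Pnpla3, a lipid droplet protein, was covered over 1396 and 1426 bp in FK866 plus succinate, 2887 and 1627 bp in FK866, and 1254 and 1115 bp in Control (log2 difference 0.82 between FK866 and Control, adjusted p = 0.866 from limma). Fgf21, a metabolic hormone, was covered over 292 and 0 bp in FK866 plus succinate, 0 and 852 bp in FK866, and 1205 and 456 bp in Control.

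Of 11 other glucose and hexose transporters 8 were tested, and Slc2a2 and Slc5a1 had no peak. In the same order of comparisons, 1, 0 and 0 were higher without overlap and 4, 2 and 2 lower, with median differences of −0.06, −0.10 and −0.25. Over all genes 17.9%, 12.8% and 13.4% were higher and 21.8%, 19.9% and 24.5% lower, with medians of −0.01, −0.03 and −0.04. Slc2a13 was covered over 0 and 0 bp in FK866 plus succinate, 408 and 596 bp in FK866, and 0 and 714 bp in Control. Slc2a6 was covered over 1588 and 1727 bp in FK866 plus succinate, 1584 and 1820 bp in FK866, and 1839 and 2379 bp in Control. Slc2a5, the fructose transporter, was covered over 898 and 1258 bp in FK866 plus succinate, 716 and 1446 bp in FK866, and 1588 and 1306 bp in Control (log2 difference −0.40 against Control, adjusted p = 0.808 from limma). Of 9 arrestin domain and thioredoxin genes 8 were tested, and Arrdc5 had no peak, with 1, 0 and 0 higher and 4, 1 and 1 lower and median differences of −0.13, 0.03 and −0.10, beside the same shares and medians over all genes. Arrdc2, a relative of Arrdc4, was covered over 1502 and 1443 bp in FK866 plus succinate, 1937 and 1859 bp in FK866, and 1945 and 1935 bp in Control (log2 difference −0.35 against FK866, adjusted p = 0.424 from limma). Txn1, which encodes thioredoxin, was covered over 2033 and 2259 bp in FK866 plus succinate, 2023 and 1939 bp in FK866, and 2042 and 2808 bp in Control.

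The 3 genes whose covered length was most like that of Mlxipl over the 6 libraries were BC005624, Afap1 and Dnmbp. They were taken from 13526 genes with at least 500 bp in every library, by Euclidean distance between centred log2 lengths. The distances were 0.112, 0.125 and 0.125. Dnmbp, for example, was covered over 6506 and 6321 bp in FK866 plus succinate, 4667 and 4769 bp in FK866, and 5769 and 4890 bp in Control.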

How the data were processed

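CUT&Tag peak lists of 6 libraries in 3 groups were analysed, grouped and numbered by their labels. Per the submitters' processing notes, cutadapt 1.9 and Bowtie2 2.5.0 with the mm10 build were used. For the peak caller, nothing was given in the sources used here. Each list is in the narrowPeak layout. The deposited score is 10 times the −log10 p with decimals dropped, in 99.88% to 99.98% of a library's peaks; the deposited fold is a ratio to local background, and the −log10 values of the p-value and q-value, also as deposited, refer to 1 library. No read counts or control library were used, so depth is known only as a relative value.

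Peaks overlapping a gene span plus 2 kb by at least 1 bp were summed to a covered length, using RefSeq GRCm38.p6 spans. Genes covered in at least 2 of 6 libraries (15362) were compared as log2(covered bp + 100) with limma 3.58.1 (lmFit, eBayes with trend, all 6 libraries in 1 fit) in R 4.3.3, with Benjamini-Hochberg adjustment at 0.05. Percentiles and ranks used −log10 p within a library. The rest was computed with Python 3.11.15, pandas 2.3.3 and numpy 2.4.6. The fit was tested on simulated data. The 7 genes and the lists were chosen with earlier results of these data known. All 7 are named; from the lists, a gene is named if limma calls it, and otherwise, per list and comparison, the largest difference among those without overlap. The ranks and the repeat motif were chosen after the data were seen. Alternatives varied the pseudocount, filter, peak threshold, window, scaling, libraries and replicate block.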

Additional observations from a re-analysis of the deposited data

How the results depend on the processing

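The limma count of genes called for covered length was 0 in the 3 comparisons, and it was 0 to 0 over the fits leaving out 1 library each. With peaks of adjusted p under 0.05 alone, 33 genes were called between FK866 plus succinate and FK866, and 43 between FK866 plus succinate and Control. With the higher-scoring 50% of each list these counts were 14 and 16. With the rank of the strongest peak, chosen after seeing the data, the counts were 15, 3 and 14. Apart from Mlxipl, for which no test is given, none of the 7 genes was called in any of these. The labels do not say whether same-numbered libraries belong together, and the correlations that follow cannot settle it. Deviations of same-numbered libraries correlated at 0.0251, −0.0146 and −0.134 in the 3 comparisons, and the replicate block gave 0 calls in each. With the FK866 plus succinate numbers exchanged, a crossing chosen after seeing the data, it gave 0 calls in each.

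For the 7 genes, 337 of 378 differences under an alternative kept their sign and 41 turned. These counts include Mlxipl and the 4-kb window by which it was chosen, so nothing is read from them. The Mlxipl difference ranged from −0.01 to 0.66 between FK866 plus succinate and FK866, from −0.60 to −0.12 between FK866 and Control, and from −0.60 to 0.40 between FK866 plus succinate and Control. It turned in the first comparison in the 4-kb window at the strongest site (−0.01) and in the third there (−0.60) and with the higher-scoring 50% of peaks (−0.07). Those of Slc2a1 and Mlx between FK866 plus succinate and each other group kept their sign, but Slc2a1 shrank to −0.05 and −0.06 in the 4-kb window and Mlx against Control to −0.03 under quantile normalization. The cause was not tested. Depth is known only as a relative value, so no limit of detection can be given.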
